A study of Mus musculus with 16 samples.

Results

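The 32 genes described here are markers of astrocytes, the star-shaped glial cells of the brain, measured by RNA sequencing in the dorsal raphe nucleus (DRN) of mice. They were chosen by name, as genes used to mark astrocytes, though some of them are known from other cells too. All 32 were found among the 14504 genes of the table. The libraries came from male C57BL/6 mice, adult when the experiment began, and all were labelled with the genotype C57BL6. Controls were left unstressed and were housed individually for some days before the experiment. Stressed mice had faced an aggressive CD1 male daily for 30 days (chronic social defeat stress). They lived in sensory contact with such a male, so stressed and control mice also differed in housing. Stressed mice were sorted by the study, through clustering of their behavior in a non-aggressive contact, into a passive coping group (PS, labelled dep1) and an active coping group (AS, labelled dep2). A single intraperitoneal injection followed, of saline or of the synthetic glucocorticoid receptor agonist dexamethasone (DEX, 2 mg/kg), and the tissue was collected after 6 h. For stressed mice the injection came a day after the last defeat. The 16 libraries comprised 3 control saline, 3 control DEX, 2 PS saline, 3 PS DEX, 3 AS saline and 2 AS DEX libraries. Stressed DEX libraries with a low level of the serotonin neuron gene Tph2 had been left out by the study. The study's text describes more DRN libraries than these 16, in both control groups and in PS and AS saline. It gives no reason for their absence here.

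Astrocytes take up glutamate and GABA released at synapses, convert glutamate into glutamine, buffer potassium and water, and are coupled to each other through gap junctions. They carry the glucocorticoid receptor, a nuclear receptor that on binding a glucocorticoid acts as a transcription factor on many genes. In the raphe, astrocyte processes surround serotonin neurons, while the tissue beside the aqueduct is lined by ependymal cells, ciliated cells that share several genes with astrocytes.

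Values are normalized counts, that is reads per gene divided by a size factor of each library. Depth ran from 38207157 to 62447298 reads in the listed genes. Each gene was fitted with limma on log2(normalized count + 1) with 6 group means, and called at a Benjamini-Hochberg adjusted p below 0.1 over all 14504 genes. Log2 fold changes are given with their standard error. The serotonin neuron markers Tph2, Slc6a4 and Fev were present in every library, Tph2 at 91764 to 182191, Slc6a4 at 74627 to 129820 and Fev at 3483 to 9636 normalized counts. The glucocorticoid target Fkbp5 read 1241 to 1536 in the 8 saline libraries and 5578 to 6958 in the 8 DEX libraries, so the DEX labels matched the libraries. Of 16 ependymal markers 15 were listed, none of them at 0 in any library, and their summed count varied widely. It ran from 5407 to 18439.8 in saline and from 2113 to 31034 in DEX libraries, with the lowest value in dep1_dex_6 and the highest in dep1_dex_64. In bulk tissue a smaller number of cells of a type and less RNA per cell cannot be told apart.

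All 32 astrocyte genes were well measured, with a lowest value of 549 normalized counts in any library. Per kilobase of exon, the control saline level was above the 90th percentile of all genes for 16 of them. The highest levels per kilobase were those of the secreted protease inhibitor Cst3 at 23100.1 ± 3950.2 (SD, n = 3), the lipid carrier Apoe at 22753 ± 4598, the glycolytic enzyme Aldoc at 18223 ± 1774 and glutamine synthetase Glul at 17659.5 ± 499 normalized counts. Differences between neighbours in this order, such as Cst3 and Apoe or Aldoc and Glul, were smaller than the larger of their SDs. The lowest were those of the transcription factor Sox9 at 304 ± 37.5, the urea transporter Slc14a1 at 278 ± 25.2 and the intermediate filament Vim at 239 ± 34.6. Across the 16 libraries the highest value of a gene was between 1.34 times (Acsbg1 and Slc1a3) and 4.24 times (Vim) its lowest, and it was more than 2 times the lowest for 9 genes. The median residual SD within groups was 0.19 on the log2 scale for the 32 genes and 0.21 for all 14504.

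**Figure D1:**
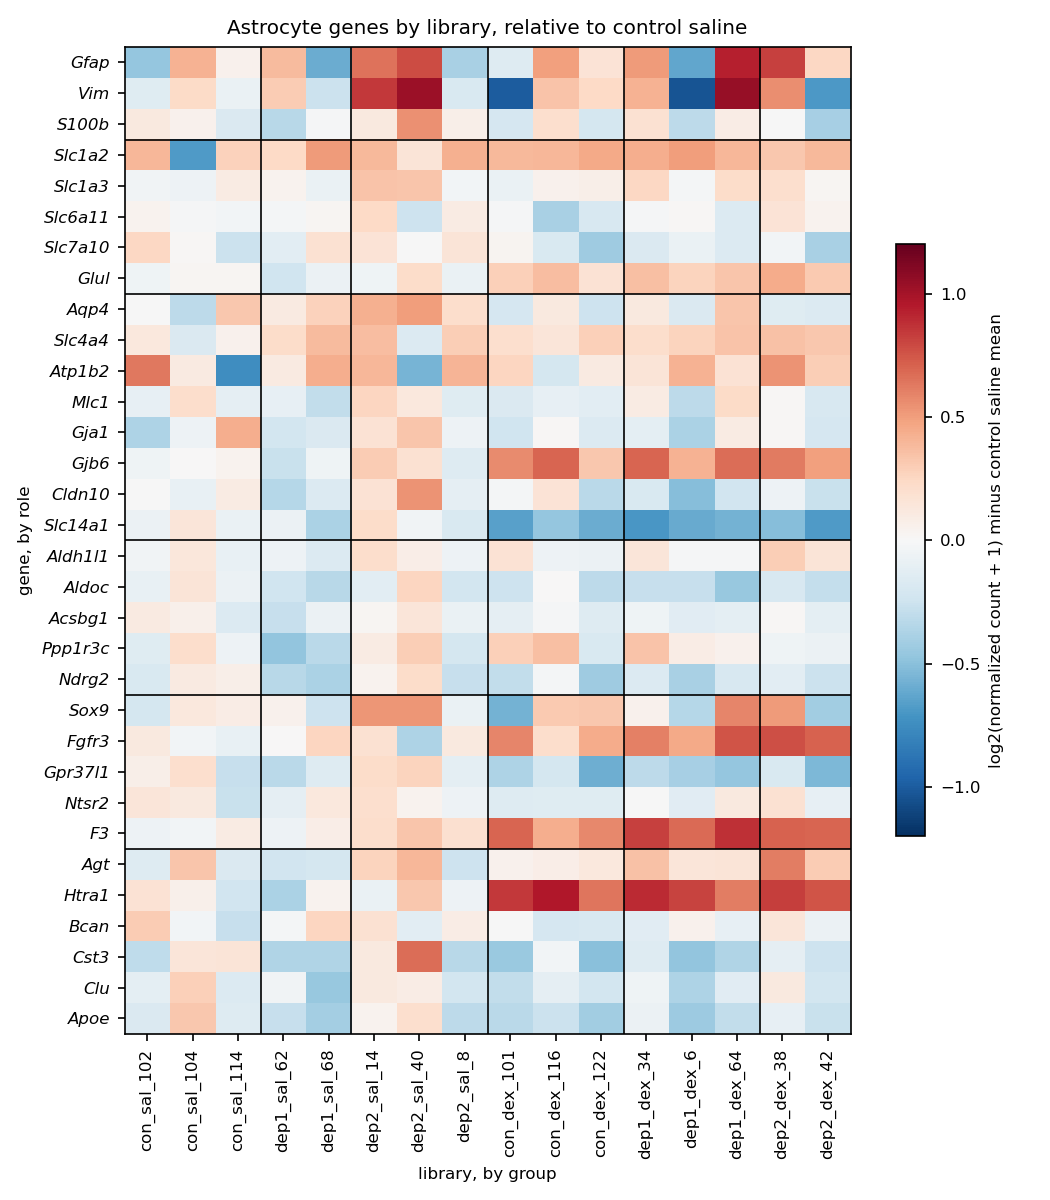
Log2(normalized count + 1) of the 32 astrocyte genes (rows, by role, separated by black lines) in the 16 libraries (columns, by group), as the difference from the control saline mean on a colour scale from blue (lower) to red (higher). Htra1, F3 and Gjb6 are red and Slc14a1 blue in all 8 DEX columns, while Gfap, Vim and Sox9 vary between libraries of the same group.

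Whether DEX changed the astrocyte genes was asked in each phenotype and as the average of the 3 phenotypes. In the average, 7 of 32 genes were called (21.9%), against a background of 4.31% of all genes. The 32 genes were chosen with earlier results of these data known. Their shares here and below are therefore descriptions and not tests. Higher after DEX were the secreted protease Htra1, the tissue factor gene F3, the gap junction protein Gjb6, the growth factor receptor Fgfr3 and the glutamine-forming enzyme Glul, 5 of 32 against 2.78% of all genes. Lower were the urea transporter Slc14a1 and the orphan receptor Gpr37l1, 2 of 32 against 1.53%. The list did not move as a block, as 13 of 32 genes had a positive change, where 49.4% of all genes did, and the median change was -0.047, beside -0.0026 over all genes. The other 25 genes were not called and had changes from -0.25 to 0.28. DESeq2 and edgeR, run on the reads behind the same values, called the same 7 genes in the average. For F3, Htra1, Gjb6 and Slc14a1 the 8 DEX libraries did not overlap the 8 saline libraries, which is 4 of 32 genes (12.5%) against 1.88% of all genes.

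**Figure D2:**
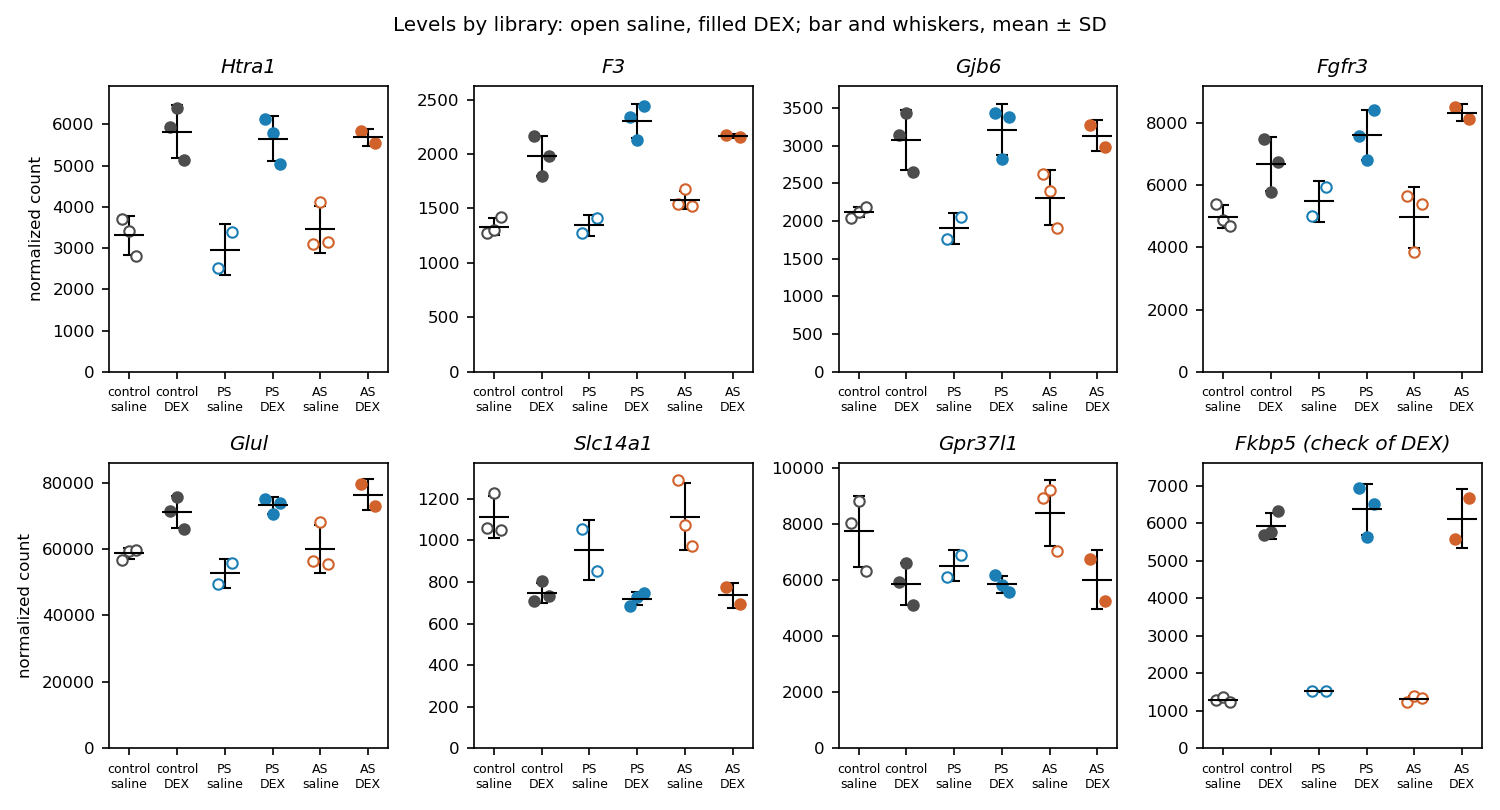
Normalized counts (vertical axes, from 0) of the 7 astrocyte genes called in the average DEX comparison, and of Fkbp5 as a check of the treatment, in each library by group (horizontal axes). Points are libraries, open for saline and filled for DEX, and bars with whiskers are the mean ± SD of 2 or 3 libraries. The DEX points of Htra1, F3 and Gjb6 lie above every saline point and those of Slc14a1 below every saline point.

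Within single phenotypes fewer genes passed. In controls 4 of 32 were called against 1.26% of all genes, namely F3, Htra1 and Gjb6 as higher (3 of 32 against 1.0%) and Slc14a1 as lower (1 of 32 against 0.262%). In PS the count was 3 of 32 against 0.703%, with F3, Htra1 and Gjb6 higher (0.579% of all genes were). In AS it was 2 of 32 against 0.689%, with Fgfr3 and Htra1 higher (0.538% of all genes were). DESeq2 and edgeR called the same 4 genes in controls, and in PS edgeR called the same 3 genes and DESeq2 also Glul. In AS DESeq2 called 5 genes (F3, Fgfr3, Glul, Htra1 and Slc14a1) and edgeR 2 (F3 and Fgfr3, but not Htra1). These counts were sensitive to single libraries. The control count was 2 without con_dex_101, con_dex_116, con_dex_122 or con_sal_104, and the PS count was 1 without dep1_dex_34 or dep1_sal_62. The AS count was 0 without dep1_dex_34, dep2_dex_38 or dep2_dex_42, 1 without con_dex_101, con_dex_116, con_dex_122, con_sal_104, dep1_dex_6, dep1_dex_64, dep2_sal_14 or dep2_sal_40, and 3 without con_sal_114. Median changes of the 32 genes stood at -0.081 in controls, 0.073 in PS and -0.091 in AS, beside 0.0042, -0.0044 and -0.0060 over all genes. All 7 genes of the average had the same direction in the 3 phenotypes, which a call in the average favours, so it is no separate test. Of the 32 genes, 17 had the same direction in the 3 phenotypes, and the share over all genes was not counted.

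Values are listed in the order con_sal_102, con_sal_104 and con_sal_114 for control saline, dep1_sal_62 and dep1_sal_68 for PS saline, dep2_sal_14, dep2_sal_40 and dep2_sal_8 for AS saline, con_dex_101, con_dex_116 and con_dex_122 for control DEX, dep1_dex_34, dep1_dex_6 and dep1_dex_64 for PS DEX, and dep2_dex_38 and dep2_dex_42 for AS DEX. Genome positions are those of GRCm38, and all 32 genes are protein coding.

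Among the secreted and matrix proteins, Htra1 had the largest DEX response of the 32 genes. Htra1 (chr7:130936111-130985660, plus strand) encodes a serine protease that cleaves matrix proteins and growth factor regulators. Its saline libraries held 3714, 3425 and 2799 in controls, 2522 and 3394 in PS and 3109, 4121 and 3152 in AS normalized counts. The Htra1 counts with DEX were 5931, 6396 and 5128 in controls, 6124, 5788 and 5049 in PS and 5838 and 5539 in AS. Every DEX library was above every saline library. The log2 fold change averaged 0.83 ± 0.092, a 1.78-fold rise, with an adjusted p of 9.35e-05 by limma. It was 0.82 ± 0.15 in controls (adjusted p = 0.0167, limma), 0.95 ± 0.17 in PS (adjusted p = 0.021) and 0.73 ± 0.17 in AS (adjusted p = 0.0928). The PS call was lost without dep1_dex_34 or dep1_sal_62 (adjusted p = 0.119 and 0.283 by limma), and 11 of 16 fits without a library dropped the AS call. The 5 other secreted or matrix genes were not called. Agt, which encodes the angiotensin precursor and is known to respond to glucocorticoids in liver, came closest at 0.28 ± 0.10 (adjusted p = 0.211, limma), with 0.084 in controls, 0.44 in PS and 0.32 in AS. Its counts ranged from 6825 to 10717 in saline and from 8436 to 12432 in DEX libraries, so the arms overlapped. The changes of the matrix proteoglycan Bcan, Cst3, the chaperone Clu and Apoe were -0.11, -0.21, -0.065 and -0.14, each within 2 standard errors of 0.

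Of the receptors and the transcription factor, F3 and Fgfr3 rose and Gpr37l1 fell. F3 (chr3:121723537-121735048, plus strand) encodes tissue factor, the membrane receptor that starts blood coagulation and that astrocytes supply in the brain. F3 read 1277, 1298 and 1422 in controls, 1279 and 1410.0 in PS and 1538, 1677 and 1525 in AS normalized counts with saline. F3 after DEX read 2164, 1799 and 1982 in controls, 2344, 2126 and 2439 in PS and 2178 and 2156 in AS. The arms were separated by a gap from 1677 to 1799 and libraries of one group lay close together. F3 had the smallest p of the 32 genes, with an average of 0.60 ± 0.059 (adjusted p = 3.31e-05, limma). The change was 0.57 ± 0.095 in controls (adjusted p = 0.00991, limma) and 0.78 ± 0.11 in PS (adjusted p = 0.00264), while that of 0.46 ± 0.11 in AS just missed the threshold (adjusted p = 0.102). DESeq2 and edgeR called F3 in AS (adjusted p = 0.0082 and 0.0946).

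Fgfr3 (chr5:33721674-33737068, plus strand) encodes a fibroblast growth factor receptor present on astrocytes from their precursor stage on. Fgfr3 read 5403, 4861 and 4689 in controls, 4993 and 5946 in PS and 5639, 3837 and 5405 in AS with saline. After DEX Fgfr3 stood at 7485, 5774 and 6754 in controls, 7567, 6800.5 and 8415 in PS and 8509 and 8130.2 in AS. In 7 of 8 DEX libraries it was above the highest saline library, and con_dex_116 lay within the saline range. The average change was 0.55 ± 0.09 (adjusted p = 0.00248, limma), and in AS, where it was called, 0.77 ± 0.16 (adjusted p = 0.0595). An exon of Fgfr3 overlaps the antisense gene G630022F23Rik, and the strand setting of the counting is not stated, so reads of both may be mixed.

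Gpr37l1 (chr1:135160234-135167681, minus strand) encodes an orphan receptor of astrocytes related to the endothelin receptors. Gpr37l1 read 8054, 8821 and 6337 in controls, 6128 and 6902 in PS and 8942, 9208 and 7056 in AS with saline. With DEX the Gpr37l1 counts were 5917, 6608 and 5106 in controls, 6174, 5823 and 5564 in PS and 6773 and 5267 in AS. In 5 of 8 DEX libraries it was below the lowest saline library, so the arms overlapped. Its average change was -0.34 ± 0.091 with an adjusted p of 0.0638 by limma, the weakest of the 7 calls. It lost that call in 10 of 16 fits without a library, with adjusted p-values up to 0.292. The neurotensin receptor Ntsr2 was at -0.06 ± 0.077 and Sox9, the transcription factor that maintains astrocyte identity, at -0.02 ± 0.19. Sox9 read 1081, 1365 and 1330.5 in controls, 1299 and 1051 in PS and 1803, 1811 and 1185 in AS with saline. Under DEX Sox9 was at 843, 1556 and 1567 in controls, 1296, 989 and 1884 in PS and 1781 and 937 in AS. Libraries of the same group differed by up to 1.91 times, so the arms overlapped almost fully.

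The water, ion and junction proteins included 1 gene that rose and 1 that fell. Gjb6 (chr14:57123303-57133611, minus strand) encodes connexin 30, which with connexin 43 couples astrocytes through gap junctions. Gjb6 read 2046, 2122 and 2185 in controls, 1756 and 2047 in PS and 2617, 2397 and 1906 in AS with saline. Gjb6 after DEX read 3145, 3428 and 2651 in controls, 3434, 2821 and 3380.1 in PS and 3272 and 2983 in AS. The lowest DEX library, con_dex_122, was just above the highest saline library, dep2_sal_14. The average change was 0.58 ± 0.081 (adjusted p = 0.000737, limma). It was 0.53 ± 0.13 in controls (adjusted p = 0.0956, limma) and 0.75 ± 0.15 in PS (adjusted p = 0.0358). The control call was lost in 12 of 16 fits without a library and the PS call in 4. Connexin 43, encoded by Gja1, did not show the same change. Gja1 read 6386, 7904 and 11170.4 in controls, 7104 and 7327 in PS and 9324, 10392 and 7914 in AS with saline. DEX libraries held Gja1 at 7016, 8349 and 7375 in controls, 7593, 6358 and 8856 in PS and 8332 and 7171 in AS, an average change of -0.10 ± 0.11 (adjusted p = 0.68, limma). The arms overlapped almost fully for Gja1, whereas they were separate for Gjb6.

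Slc14a1 (chr18:78100091-78142119, minus strand) encodes a urea transporter of astrocytes and red blood cells. Slc14a1 read 1057, 1228 and 1050.2 in controls, 1055 and 853 in PS and 1291, 1075 and 974 in AS with saline. Slc14a1 after DEX read 706, 803 and 733 in controls, 685, 728 and 748 in PS and 778 and 692 in AS. All 8 DEX libraries lay below all 8 saline libraries, between 803 at most and 853 at least. The average change was -0.52 ± 0.08 (adjusted p = 0.00151, limma), and in controls it was -0.57 ± 0.13 (adjusted p = 0.0603). In AS it was -0.59 ± 0.14 (adjusted p = 0.123, limma) and in PS -0.40 ± 0.14 (adjusted p = 0.632), neither called. DESeq2 called Slc14a1 in AS (adjusted p = 0.0128) and edgeR did not, and neither called it in PS.

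Aqp4, the water channel of astrocyte endfeet, was not called. Aqp4 read 6436, 5218 and 8083 in controls, 6984 and 7844 in PS and 8718, 9163 and 7499 in AS with saline. Under DEX Aqp4 was at 5649, 7005 and 5444 in controls, 7042, 5744 and 8134 in PS and 5844 and 5764 in AS. The average was -0.25 ± 0.10 (adjusted p = 0.281, limma), and the largest difference was in AS, -0.54 ± 0.18 (adjusted p = 0.351), where both DEX libraries were below all 3 saline libraries. Groups this small often separate, as 23.6% of all genes did between AS and PS with saline. The bicarbonate transporter Slc4a4, the sodium pump subunit Atp1b2, the membrane protein Mlc1 and the claudin Cldn10 had average changes of 0.12, 0.12, -0.033 and -0.16, none called. Atp1b2 had 2 low libraries, con_sal_114 at 13046 and dep2_sal_40 at 14854, against 18901 to 33762 in the other 14.

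Of the 5 genes of transmitter uptake and glutamine synthesis, Glul was called. Glul (chr1:153899944-153909723, plus strand) encodes glutamine synthetase, which makes glutamine from glutamate and ammonia. Glul read 56777, 59482 and 59788 in controls, 49605 and 55779 in PS and 56457, 68242 and 55379 in AS with saline. Glul after DEX read 71591, 75701 and 66027 in controls, 75220.5, 70462 and 73731 in PS and 79737 and 73090.2 in AS. The arms overlapped through 2 libraries, dep2_sal_40 at 68242 and con_dex_122 at 66027, and the other 7 DEX libraries were above every saline library. The average change was 0.37 ± 0.075 (adjusted p = 0.0118, limma), with 0.28 in controls, 0.47 in PS and 0.35 in AS, none called by limma in 1 phenotype. DESeq2 called Glul in PS (adjusted p = 0.00319) and in AS (adjusted p = 0.0947), and edgeR in neither. Exons of Glul overlap the antisense gene Teddm2 and the microRNA gene Mir8114.

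The glutamate transporters were not called. Slc1a2 (GLT-1), which clears most synaptic glutamate, read 49973, 23633 and 45809 in controls, 44739.6 and 53856 in PS and 49479, 42209 and 50877 in AS with saline. With DEX the Slc1a2 counts were 49392, 49759.9 and 51816 in controls, 51106, 53546 and 49807 in PS and 47217 and 49550.2 in AS. Apart from con_sal_104, which was far below the rest, all libraries lay between 42209 and 53856 and the arms overlapped. The difference was 0.41 ± 0.21 in controls (adjusted p = 0.458, limma), the group that holds con_sal_104, and 0.068 in PS and 0.03 in AS. Slc1a3 (GLAST), the second glutamate transporter, read 9937, 9817 and 10919.6 in controls, 10523 and 9637 in PS and 12938, 12856 and 9998 in AS with saline. DEX libraries held Slc1a3 at 9695, 10604 and 10740.5 in controls, 12163, 10056 and 11884 in PS and 11782 and 10382 in AS, an average change of 0.029 ± 0.071 (adjusted p = 0.869, limma). Slc6a11, the GABA transporter GAT3, and Slc7a10, an exchanger of serine and other small amino acids, were at -0.061 ± 0.081 and -0.23 ± 0.093.

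None of the metabolic genes was called. Aldh1l1, a folate enzyme widely used to mark astrocytes, read 2451, 2765 and 2369 in controls, 2411 and 2257 in PS and 2921, 2672 and 2421 in AS with saline. Under DEX Aldh1l1 was at 2845, 2411 and 2395 in controls, 2786, 2500.1 and 2493 in PS and 3087 and 2813 in AS, an average change of 0.10 ± 0.064 (adjusted p = 0.481, limma). Aldoc, the fatty acyl-CoA ligase Acsbg1, the glycogen-targeting phosphatase subunit Ppp1r3c and the differentiation-associated Ndrg2 were at -0.15, -0.033, 0.20 and -0.11. Ppp1r3c differed most between phenotypes, with 0.56 ± 0.18 in PS, 0.16 in controls and -0.12 in AS, none called.

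The filament and calcium-binding proteins were the least even. Gfap, the main intermediate filament of astrocytes and the usual marker of their reactive state, read 1007, 1856 and 1448 in controls, 1818 and 922 in PS and 2182, 2393 and 1062 in AS with saline. Gfap after DEX read 1248, 1966 and 1565 in controls, 1991, 902 and 2661 in PS and 2468 and 1653 in AS. Values within one group differed by up to 2.95 times, as in PS DEX, which is wider than any difference between groups. The average DEX change was 0.25 ± 0.25 (adjusted p = 0.669, limma). With the myelin level of each library as a covariate it was -0.34, so it turned sign. Vim ran from 939.6 to 2289.9 in saline and from 549 to 2328 in DEX libraries, at -0.22 ± 0.32. S100b, a calcium-binding protein, was at -0.12 ± 0.11.

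**Figure D3:**
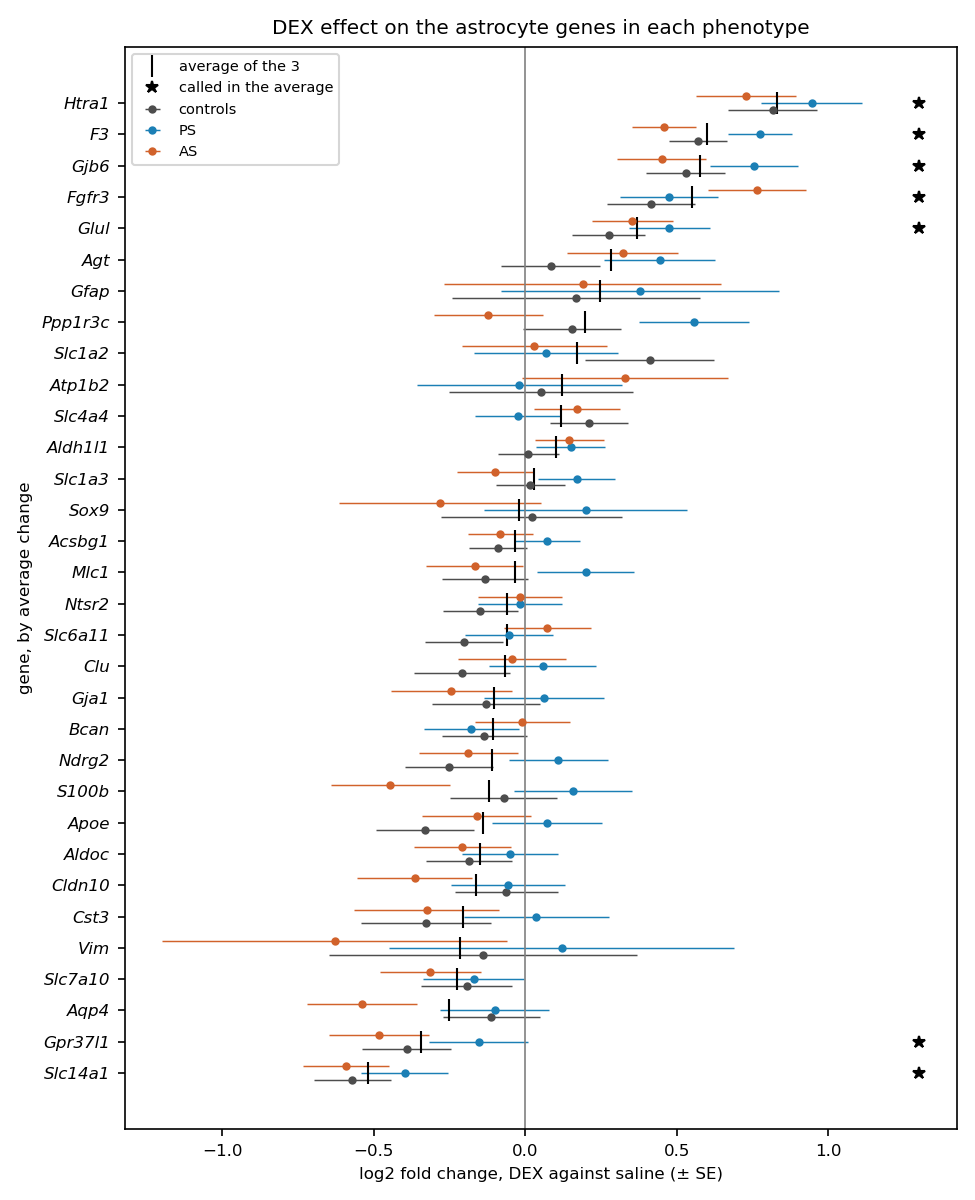
Log2 fold change of DEX against saline (horizontal axis, ± SE) of the 32 astrocyte genes, ordered by the average of the 3 phenotypes (vertical axis). Points are controls (grey), PS (blue) and AS (orange), ticks are the average and stars mark the 7 genes called in the average. Htra1 to Glul lie to the right of 0 and Slc14a1 and Gpr37l1 to the left in every phenotype, while Gfap, Vim, Sox9 and Atp1b2 have the widest errors.

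Whether the DEX effect differed between phenotypes was tested by 3 interaction terms. None of the 32 genes was called in any of them by limma, DESeq2 or edgeR, against 0.0% of all genes by limma. An unadjusted p under 0.05 was reached by 0 of 32 genes where PS was set against control (2.1% of all genes), by 0 where AS was set against control (4.02%) and by 2 where AS was set against PS (2.9%). Over the 7 genes called in the average the interaction values ran from -0.33 to 0.35, and 0 of 21 reached an unadjusted p under 0.05. The smallest p was that of F3 at 0.052 (unadjusted, limma). Among the others, Ppp1r3c and S100b differed between AS and PS by -0.68 ± 0.25 and -0.60 ± 0.28 (unadjusted p = 0.0186 and 0.0474, both with an adjusted p of 0.869 in limma). A call in 1 phenotype that is missing in another is therefore not a shown difference between them.

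The windows around the starts of the genes show what sequence lay upstream of the largest riser, Htra1, and of the 2 uptake genes whose windows held the core letters of a glucocorticoid response element. Windows run from 250 bases before to 50 after a RefSeq start site (GRCm38.p6), and 35 windows were found for 27 of the 32 genes. Slc14a1, called lower after DEX, had no window. Capitals mark the core ACANNNTGT, searched on both strands, and N is any base.
Htra1 (chr7:130935953-130936252, plus strand, no core): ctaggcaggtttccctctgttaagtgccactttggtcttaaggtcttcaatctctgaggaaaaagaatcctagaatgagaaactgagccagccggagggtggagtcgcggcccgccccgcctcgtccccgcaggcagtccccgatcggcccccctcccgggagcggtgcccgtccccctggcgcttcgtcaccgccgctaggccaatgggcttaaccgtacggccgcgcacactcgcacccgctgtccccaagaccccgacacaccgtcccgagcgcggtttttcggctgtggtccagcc
Glul (chr1:153899679-153899978, plus strand): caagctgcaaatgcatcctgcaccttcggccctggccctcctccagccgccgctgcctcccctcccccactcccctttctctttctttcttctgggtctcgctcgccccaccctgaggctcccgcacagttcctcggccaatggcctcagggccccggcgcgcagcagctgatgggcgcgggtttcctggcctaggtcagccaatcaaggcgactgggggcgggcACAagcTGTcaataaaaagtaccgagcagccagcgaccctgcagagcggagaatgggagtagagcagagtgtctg
Slc1a2 (chr2:102706188-102706487, plus strand): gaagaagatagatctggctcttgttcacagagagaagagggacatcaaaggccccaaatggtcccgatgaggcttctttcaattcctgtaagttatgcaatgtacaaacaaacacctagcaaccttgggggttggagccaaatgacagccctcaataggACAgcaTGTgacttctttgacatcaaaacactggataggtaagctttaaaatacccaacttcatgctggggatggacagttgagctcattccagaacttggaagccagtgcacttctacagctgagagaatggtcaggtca
In Glul the core began 25 bases, and in Slc1a2 91 bases, before the start site. The Slc1a2 window surrounds an internal start site, as the annotated gene begins at chr2:102658659. Glul was called higher after DEX and Slc1a2 was not called. The core occurred in 3 of 35 windows of astrocyte genes (8.57%), the other being 1 of 2 windows of Cldn10, and in 6.85% of all 32851 windows. The full palindrome, which has AGA before the core and TCT after it, was in 0 of the 35 windows and in 3 (0.00913%) of all. A match is a description of letters, and its absence from so short a window says nothing of the receptor.

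Other astrocyte genes were read from a list of 63 names, of which 59 were in the table. In the DEX average 15 of 59 were higher and 7 lower, against 2.78% and 1.53% of all genes, with a median change of -0.035. The 5 with the smallest p were Fam107a, an actin-binding stress-response gene (1.34, adjusted p = 4.06e-07, limma), Mertk, the receptor through which glia engulf debris (1.55, 3.34e-06), S1pr1, a sphingosine-1-phosphate receptor (-0.67, 5.81e-06), the metal-binding protein Mt2 (1.32, 1.95e-05) and the phospholipase Plcd4 (0.70, 3.87e-05). All 5 were called in the same direction in controls, PS and AS as well. Mt1, Mt2 and Pdk4 also stand on a list of 20 glucocorticoid targets, of which 19 were tested and 18 were higher. These lists were chosen with earlier results of these data known, so their counts are descriptions and not tests. Of 40 names for reactive astrocytes 19 were in the table. In the DEX average 5 of these were higher and 0 lower, against 2.78% and 1.53% of all genes. The 5 were Fkbp5 (2.15), a glucocorticoid target on its own account, the matrix protein Fbln5 (0.999), the protease inhibitor Serpina3n (0.33), the adhesion molecule Amigo2 (0.55) and ceruloplasmin, Cp (0.46).

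Some markers of other cells were called in the DEX average as well, where 2.78% of all genes were higher and 1.53% lower. In lists this short a single call is not a shown change of the cell type. Of 12 markers of myelinating oligodendrocytes 6 were lower and 0 higher, led by Opalin (-1.71), and their summed count was 139285 to 228460 in saline and 135986 to 191303 in DEX libraries. Of 12 microglial markers 3 were lower and 0 higher, led by Cx3cr1 (-0.83), with sums of 10124 to 15272 and 9333 to 10791. Of 10 markers of oligodendrocyte precursors 1 was higher (Pdgfra, 0.30) and 1 lower (Sox10, -0.44), with sums of 12811 to 18649 in saline and 14650 to 17054 in DEX libraries. Of 9 endothelial markers 1 was lower (Tek, -0.46), with sums of 6525 to 10659.8 and 7289 to 9261. Of 10 mural cell markers 1 was lower (Vtn, -0.63), with sums of 6593 to 10917 and 6212 to 9417. Of the 10 serotonin neuron, 10 general neuron, 15 ependymal and 6 choroid plexus markers none was called. No marker of these lists was at 0 in any library, apart from Ttr of the choroid plexus list. The mean log2 level of the myelin markers ran from -0.14 to 0.53 in saline and from -0.59 to 0.075 in DEX libraries, so it moved with the treatment. With it as a covariate, 4 of the 7 astrocyte calls of the average remained (F3, Htra1, Gjb6 and Slc14a1), while Fgfr3, Glul and Gpr37l1 were at 0.52, 0.46 and -0.22 with adjusted p-values of 0.271, 0.181 and 0.921 by limma. Without the covariate Fgfr3, Glul and Gpr37l1 were at 0.55, 0.37 and -0.34. Calls over all genes, 625 (4.31%) without the covariate, also became far fewer with it, so lost calls were not particular to the astrocyte genes. With the ependymal level as a covariate the count stayed at 7, and with the general neuron level it was 6, Gpr37l1 being lost. The part of microglia, precursors and vascular cells in the astrocyte results was not tested.

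Chronic stress was read from the saline libraries alone. None of the 32 genes was called by limma in PS against control, AS against control or AS against PS. The share of all genes called by limma was 0.0% in each. DESeq2 and edgeR also called none of the 32 genes. Over all genes the study, with DESeq2, reports a small number that changed with stress in the DRN. The 3 comparisons share libraries, so their values are not independent of each other. In PS against control 2 of 32 genes had an unadjusted p under 0.05, against 7.67% of all genes. In AS against control there were 2, against 2.39%. In AS against PS there were 7 (21.9%), against 3.41%, all higher in AS.

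The 7 were Ppp1r3c, Cldn10, F3, Gpr37l1, Ndrg2, Cst3 and S100b, with differences from 0.23 to 0.51. Ppp1r3c, which targets a phosphatase to glycogen, read 1243, 1592 and 1325 in controls, 996 and 1103 in PS and 1473, 1690.5 and 1195 in AS. Cldn10, a claudin, read 813, 768 and 872 in controls, 645 and 729.9 in PS and 919, 1184 and 757 in AS. For Ppp1r3c and Cldn10 both PS libraries were below all control and all AS libraries, while 28.5% of all genes did not overlap between PS and control and 23.6% between AS and PS. The AS to PS difference was 0.46 ± 0.18 for Ppp1r3c and 0.45 ± 0.19 for Cldn10, both with an adjusted p of 0.728 by limma. Ndrg2 read 40561, 49763 and 48330.2 in controls, 36514 and 35366 in PS and 47535, 53550.3 and 38112 in AS and differed by 0.35 ± 0.16 between AS and PS and by -0.36 ± 0.16 between PS and control. F3 was 0.25 ± 0.095 and Aqp4 0.38 ± 0.16 higher in AS than in control, the 2 smallest p-values of that comparison, with an adjusted p of 0.998 for both by limma. After DEX, Ppp1r3c read 1687, 1771 and 1214 in controls, 1754, 1467 and 1426 in PS and 1332 and 1313 in AS, and both AS libraries were below all 3 PS libraries. With so few libraries such a separation is common, as the 23.6% between AS and PS with saline shows. Cldn10 read 802, 912 and 654 in controls, 721, 572 and 695 in PS and 782 and 678 in AS and Ndrg2 37419.8, 45226 and 34212 in controls, 40964, 35134 and 40406 in PS and 42234 and 38549 in AS, and the phenotypes overlapped for both.

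In the DEX libraries none of the 32 genes was called between phenotypes by limma, DESeq2 or edgeR. Of all genes, 1 (0.00689%) was called by limma in AS against control, and 0.0% in PS against control and in AS against PS. An unadjusted p under 0.05 was reached there by F3 in PS against control (1 of 32, beside 1.23% of all genes) and by 0 of 32 genes in AS against control (3.5%) and in AS against PS (1.7%).

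The signs leaned one way. From PS to AS, 27 of 32 genes had a positive difference, where 50.4% of all genes did, with a median of 0.24 beside 0.0024 over all genes. From control to AS 26 of 32 were positive (53.9% of all genes, median 0.093) and from control to PS 11 of 32 (51.0% of all genes, median -0.16). The count of genes at an unadjusted p under 0.05 between AS and PS depended on single libraries. It was 0 without dep2_sal_40 or dep1_sal_62, 1 without dep2_sal_14, 2 without dep1_dex_34, 3 without con_dex_101 or dep1_dex_64, 4 without con_dex_122, con_sal_102, dep2_dex_38 or dep2_dex_42 and 13 without dep2_sal_8. The number of positive differences was 25 to 32 in these fits. Of the 59 other astrocyte genes 48 were positive between AS and PS, median 0.20. Signs of other marker lists leaned the same way, with no marker called. All 12 microglial markers and 14 of 15 ependymal markers were positive between AS and PS, with medians of 0.26 and 0.48, and all 15 ependymal markers between AS and control, median 0.73. The summed ependymal count was 6914 to 18439.8 in AS saline, 5407 to 13754 in PS saline and 5519 to 10203 in control saline libraries. With the ependymal level as a covariate 27 of 32 astrocyte genes were positive and 2 had an unadjusted p under 0.05.

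**Figure D4:**
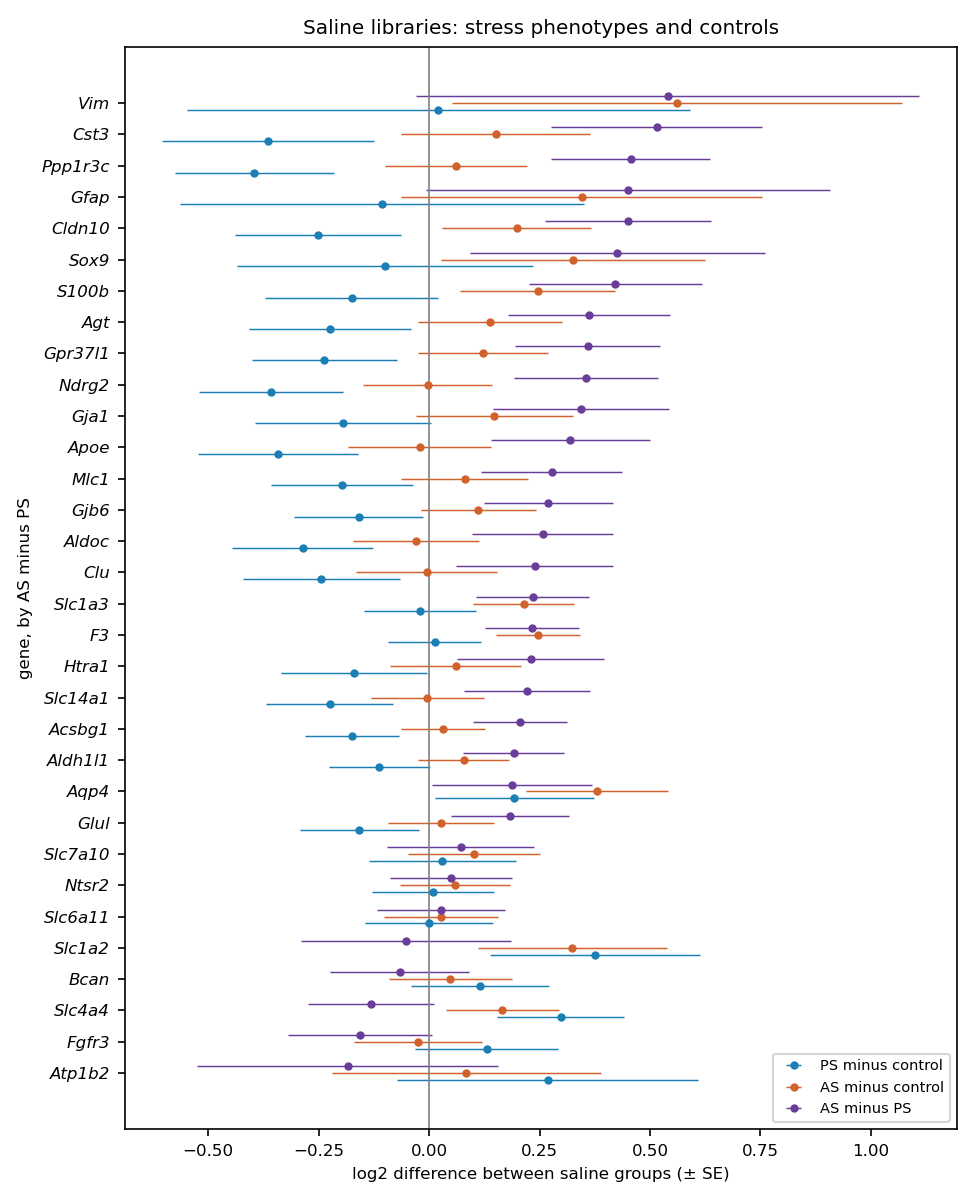
Log2 differences between saline groups (horizontal axis, ± SE) of the 32 astrocyte genes, ordered by AS minus PS (vertical axis). Points are PS minus control (blue), AS minus control (orange) and AS minus PS (purple). Most purple points, 27 of 32, lie to the right of 0, and none of these genes was called in any of the 3 comparisons.

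The 32 genes did not vary as 1 unit. Taken as deviations from group means over the 16 libraries, the 496 pairs of genes had a median Pearson r of 0.28, with 161 pairs above 0.5 and 31 below -0.5. Genes measured in the same library share its depth and its dissection, which can make them vary together. The closest pairs were Sox9 and Vim (0.95), Ndrg2 and Cst3 (0.94), Agt and Apoe (0.92), Gfap and Mlc1 (0.92) and Atp1b2 and Bcan (0.91). The most opposed were Aldoc and Slc4a4 (-0.89), Aldoc and Fgfr3 (-0.82) and Gja1 and Atp1b2 (-0.81). These values are descriptions of 16 libraries.

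Gfap, Vim, Sox9, Mlc1 and Slc1a3 followed the ependymal markers. Over the 16 libraries the Pearson r with the ependymal level was 0.93 for Vim (Spearman rho 0.91), 0.86 for Sox9 (0.86), 0.83 for Gfap (0.81), 0.77 for Mlc1 (0.80) and 0.67 for Slc1a3 (0.72). Leaving out the 2 libraries farthest from the median of the ependymal level, r was 0.89, 0.86, 0.81, 0.72 and 0.68, and as deviations from group means it was 0.95, 0.88, 0.87, 0.87 and 0.73. Clu came next, at 0.61 over the 16 libraries, 0.47 without the 2 farthest and 0.71 as deviations from group means. Vim and Sox9 are also known from ependymal cells. For the genes that rose after DEX the r over the 16 libraries was 0.15 (Gjb6), 0.060 (F3), 0.049 (Glul), 0.024 (Fgfr3) and -0.096 (Htra1). In the same order it was 0.48, 0.48, 0.33, 0.29 and 0.27 without the 2 farthest libraries, and 0.37, 0.11, 0.13, 0.091 and -0.24 as deviations from group means. For Slc14a1 and Gpr37l1, which fell, r was 0.21 and 0.17, and 0.49 and 0.18 as deviations from group means. With the myelin level, which moved with the treatment, r was -0.73 for F3 and for Fgfr3, -0.61 for Gjb6, -0.54 for Glul, -0.52 for Htra1, 0.60 for Slc14a1 and 0.70 for Gpr37l1. As deviations from group means these were -0.0089, -0.074, 0.18, 0.44, 0.78, -0.59 and 0.32, so the sign turned for Gjb6, Glul, Htra1 and Slc14a1.

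**Figure D5:**
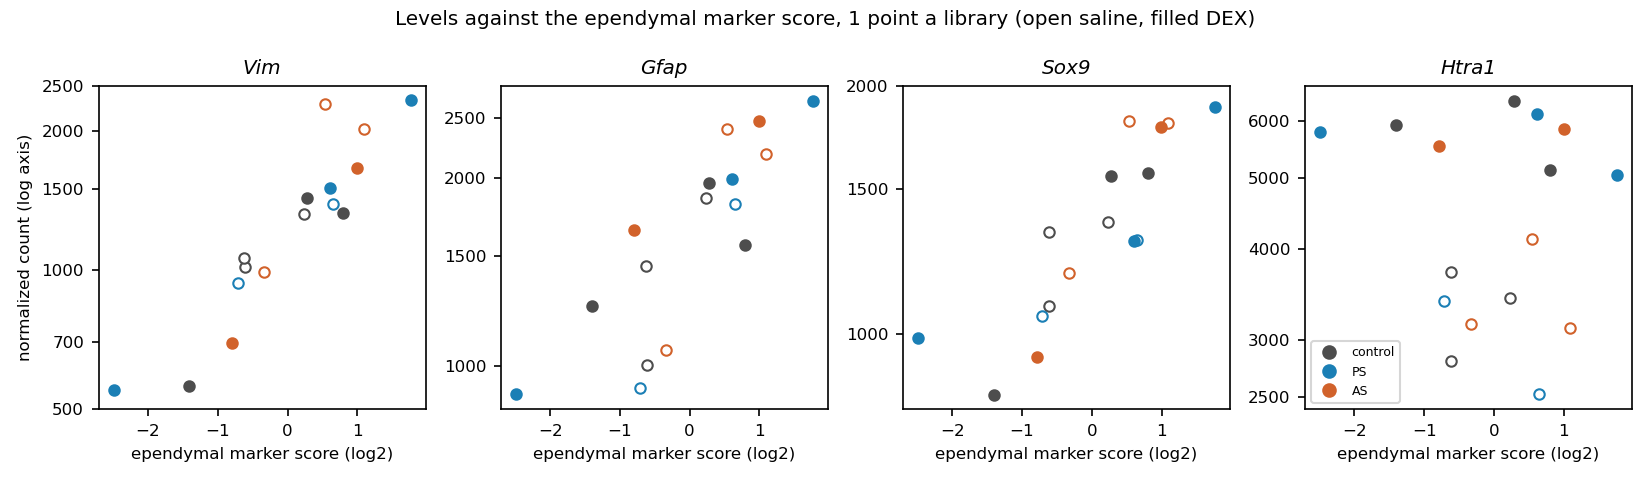
Normalized counts of Vim, Gfap, Sox9 and Htra1 (vertical axes, log scale) against the ependymal marker score of each library (horizontal axes, mean log2 deviation of 15 markers). Points are the 16 libraries, open for saline and filled for DEX, in grey for controls, blue for PS and orange for AS. Vim, Gfap and Sox9 rise with the score, while Htra1 splits into a saline and a DEX band.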

How the data were processed

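Polyadenylated RNA from DRN tissue of 16 mice, apparently 1 library per mouse, was sequenced in strand-specific paired-end libraries. Per the labels and the study's methods, the authors trimmed reads with fastp 0.20.1, aligned them with HISAT2 2.2.1 to mm10 (GRCm38), counted genes with featureCounts (Subread 2.0) and the GENCODE vM22 annotation, and normalized them in DESeq2 1.36.0. Whether counting used the strand is not given in the sources used here. Exons of 5 of the 32 genes (Aldh1l1, Slc1a2, Glul, Fgfr3 and Slc7a10) overlap another gene in GENCODE vM21, and their counts are uncertain to that extent. The deposited signal holds counts of reads over a size factor of their library. In every library 100% of values were whole reads, within 0.01, once multiplied by the factor. The deposited tables of the authors' comparisons (log2 fold changes and p-values) were not used.

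limma 3.58.1 was fitted in R 4.3.3 on log2(normalized count + 1) over all 14504 listed genes and 16 libraries, with a mean per group, a mean-variance trend and 10 residual degrees of freedom. Such fold changes understate the change of low genes. BH adjustment ran over all genes within each comparison. edgeR 4.0.16 (quasi-likelihood) and DESeq2 1.42.0 were run on the recovered reads as alternatives. The script was tested on simulated data. The 32 genes and all lists were chosen with earlier results of these data known. Genes named were those called, the 2 with the smallest p per DEX or saline comparison and 8 defining markers, and from other lists up to 5 called genes per comparison by smallest p. The study housed controls individually before the experiment and each stressed mouse beside a CD1 mouse, after earlier group housing. Which mice had shared a cage earlier is not stated, so p-values measure the spread between these libraries. Marker levels are means of log2 deviations over a list.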

Additional observations from a re-analysis of the deposited data

How the results depend on the processing

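No paired analysis was possible because the groups share no replicate numbers. The counts of called genes among the 32 changed as follows. With weights per library they were 2 (DEX in controls), 8 (PS) and 7 (AS). Fitted on only the groups compared they were 1 in controls and 0 in AS, a fit not made for the average, which uses all groups. In AS the count was 4 among genes with a mean of at least 100, 5 by DESeq2 and 1 with the myelin or the neuron level as a covariate. In the average it was 4 with the myelin level. Without 1 library, counts were 2 to 4 in controls, 1 to 3 in PS, 0 to 3 in AS, and 6 to 7 averaged. With another pseudocount (0.1 or 10), TMM or quantile scaling, edgeR and the ependymal covariate, counts stayed within 1.5 times. For F3, Htra1, Gjb6 and Slc14a1 the call in the average held under all 27 alternatives run. Glul and Fgfr3 lost it under 1 (the myelin level) and Gpr37l1 under 12. Aqp4 passed in the average with library weights (adjusted p = 0.0256, limma).

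The count of called genes over the whole table also moved. For controls, AS and the average it was 183, 100 and 625, and PS had 84 genes higher and 18 lower. In the order controls, PS, AS, average, library weights gave 176, 529, 1402 and 1328, DESeq2 gave 437, 187, 274 and 904, and the myelin level gave 81, 40, 27 and 121. The DESeq2 counts for controls, PS and AS equal those that the study reports for DEX in the DRN. On only the groups compared it was 62, 56 and 6, with the neuron level 64 in PS, and without 1 library at least 72, 30, 11 and 356, with 289 for controls without dep2_sal_40.

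Some uncalled changes in the average turned sign. Gfap, at 0.25, was at -0.34 with the myelin level. Slc1a3 was at -0.047 with the myelin level and -0.0042 with the neuron level, and without 1 library ranged from -0.012 to 0.060 (-0.012 without dep2_sal_8 and -0.0012 without dep2_dex_38). Sox9 was at 0.026 by DESeq2, 0.029 by edgeR and without 1 library from -0.17 to 0.13, above 0 without con_dex_101, con_sal_104, dep1_dex_6, dep1_sal_62, dep2_sal_14, dep2_sal_40 or dep2_dex_42. The cause was not tested. PS saline and AS DEX have 2 libraries each, which limits the precision of comparisons that use them.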
